A study of Mus musculus with 12 samples.

Results

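Melanoblasts are the neural crest cells that give rise to the pigment cells of skin and hair, and 10 genes used to follow them were examined here: Mitf, Dct, Tyr, Tyrp1, Pmel, Slc45a2, Mlana, Gpnmb, Kit and Ednrb. The genes were given by name, and all 10 were found among the 23420 genes of the count tables. RNA had been sequenced from whole mouse embryos in 2 lines at E12.5 (12.5 days of gestation), with 3 null and 3 wild-type embryos in each and 1 library per embryo. Carm1 null embryos were homozygous for Carm1tm1Mtb, a deletion of exons 2 and 3 of the gene for the arginine methyltransferase CARM1, on C57BL/6. Pax3 null embryos were homozygous for Splotch (Sp2H), a loss-of-function allele of the transcription factor gene Pax3, on a mixed background of CBA/Ca, 101 and C3H/He origin kept as a closed colony. Null and wild-type embryos of a line came from intercrosses of heterozygotes, and the lines were kept in different laboratories. Strain, place and library set therefore cannot be told apart from the line wherever the lines are compared.

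PAX3 and SOX10 are known to activate Mitf in the neural crest, and MITF in turn switches on the genes for the pigment enzymes and melanosome proteins. Kit and Ednrb encode the receptors for KIT ligand and endothelin 3, on which melanoblasts depend for survival and migration. None of these genes belongs to melanoblasts alone. The pigmented layer of the retina also makes melanin, Kit is used by mast cells, blood progenitors and germ cells, Ednrb by enteric crest, glia and neural progenitors, and Gpnmb by macrophages.

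Short stretches of 3 promoters are shown because they carry the M-box, a known target motif of MITF, and belong to the pigment enzyme genes whose counts are described below. In the RefSeq table of promoter windows (GRCm38.p6, from 250 bases before to 50 after each start), 7 of the 10 members had a window. Pmel, Mlana and Slc45a2 had none. The longest run of letters shared by the windows of the 3 enzyme genes Tyr, Tyrp1 and Dct was GTCATGTGCT, the core of the M-box. Its presence in these 3 windows was thus set by how it was found. Searched on both strands, it was in no window of Kit, Gpnmb, Mitf or Ednrb, and in 0.186% of all 32851 windows (61 of them). The capitals mark the M-box, which includes the shorter E-box CATGTG, itself present in 14.2% of windows. The E-box CACGTG was in no window of a member and in 7.15% of all windows. In Tyrp1 the motif began 48 bases before the start (chr4:80834155-80834184, plus strand), in Tyr 23 bases before it (chr7:87493516-87493545, minus strand) and in Dct 152 bases before it (chr14:118052379-118052408, minus strand).
Tyrp1: tggggagggaGTCATGTGCTgcctagtagt
Tyr: gaaaaagttaGTCATGTGCTttgcagaaga
Dct: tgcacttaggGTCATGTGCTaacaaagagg

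The counts were raw read counts per gene, between 17183344 and 23518692 per library, and they are given here as CPM (reads of a gene relative to the library total), scaled for library size and composition by the TMM method over all 12 libraries. The targeted genes were checked first. Carm1 stood at 72.2, 70.2 and 76.9 CPM in Carm1 null embryos and at 152, 147 and 139 CPM in wild type. Pax3 stood at 22.0, 21.7 and 17.8 CPM in Pax3 null embryos and at 30.7, 24.6 and 28.0 CPM in wild type, so transcript of the Sp2H allele was still counted and the gene is a weak check of the labels. Differences were tested over all genes that passed a filter on low counts, with edgeR (quasi-likelihood fits, Benjamini-Hochberg adjustment), and an adjusted P below 0.05 is called here a change. All adjusted P values below are from edgeR unless another tool is named. The labels name the samples as replicates, and each is an embryo. In whole-embryo RNA, fewer cells of a type and less RNA per cell cannot be told apart.

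Levels in wild-type embryos spanned a wide range. Per kb of the longest coding transcript, Ednrb was the most abundant in both lines, with 23.3 ± 1.53 CPM per kb in the Carm1 line and 23.5 ± 1.57 in the Pax3 line (SD, n = 3). Kit followed with 8.61 ± 0.539 and 9.23 ± 1.19 CPM per kb, and the ranges of the 2 receptors did not overlap with each other or with Pmel, the next gene in both lines. In Pax3 wild-type embryos the order then ran Pmel (2.31), Dct (1.28), Mitf (0.887), Gpnmb (0.340), Tyrp1 (0.282), Tyr (0.207), Slc45a2 (0.116) and Mlana (0.0491 CPM per kb). In that order Gpnmb and Tyrp1, and Tyrp1 and Tyr, had overlapping ranges over the libraries. In Carm1 wild-type embryos Gpnmb stood higher in the order, with 2.19 CPM per kb, between Pmel (2.52) and Dct (1.81), and its range overlapped with those of both. Mitf (1.11), Tyrp1 (0.201), Tyr (0.121), Slc45a2 (0.114) and Mlana (0.0441 CPM per kb) followed, and the ranges of the last 3 overlapped from one gene to the next.

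**Figure D1:**
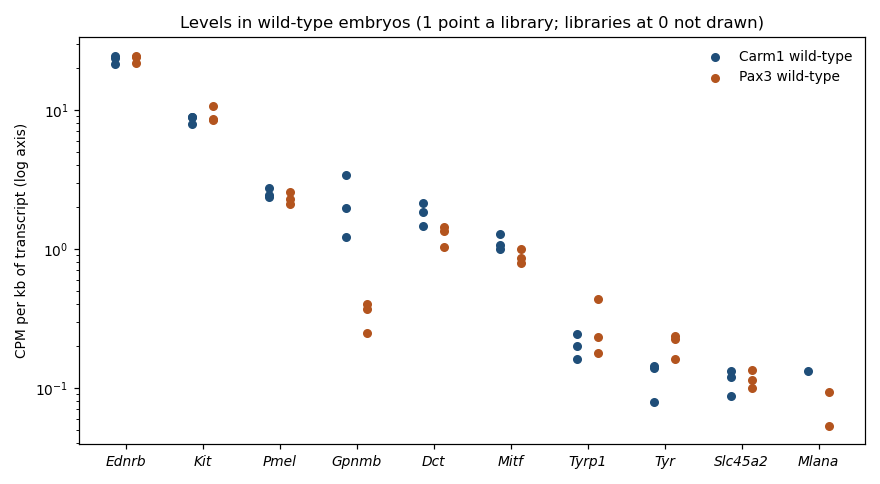
Level of each gene in wild-type embryos, in CPM per kb of its longest coding transcript on a log axis, with 1 point per library (blue, Carm1 line; orange, Pax3 line). Ednrb lies near 23 and Kit near 9 CPM per kb in both lines, whereas Gpnmb lies between 1.22 and 3.39 in the Carm1 line and between 0.248 and 0.402 in the Pax3 line.

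The comparison of null with wild-type embryos asks whether the loss of PAX3, a regulator of melanoblasts, or of CARM1 moved these genes. Of the 10 genes, 8 passed the filter in the Pax3 line and 7 in the Carm1 line. In the Pax3 line 1 of the 8 members changed, Ednrb, which fell, against 24.5% of all genes tested (10.5% lower, 14% higher). In the Carm1 line 2 of the 7 members changed, Ednrb and Kit, and both rose, against 13.3% of all genes tested (5.49% higher, 7.83% lower). The difference between the 2 null effects, tested in 1 fit of all 12 libraries, passed the threshold for Ednrb and Kit out of 8 members, both higher in the Carm1 line, against 19.1% of all genes tested (8.65% higher, 10.5% lower). No pigment enzyme or melanosome gene that passed it changed in either line. The median log2 fold change of the members tested was -0.22 in the Pax3 line and 0.080 in the Carm1 line, beside medians of -0.0026 and 0.0014 over all genes tested.

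**Figure D2:**
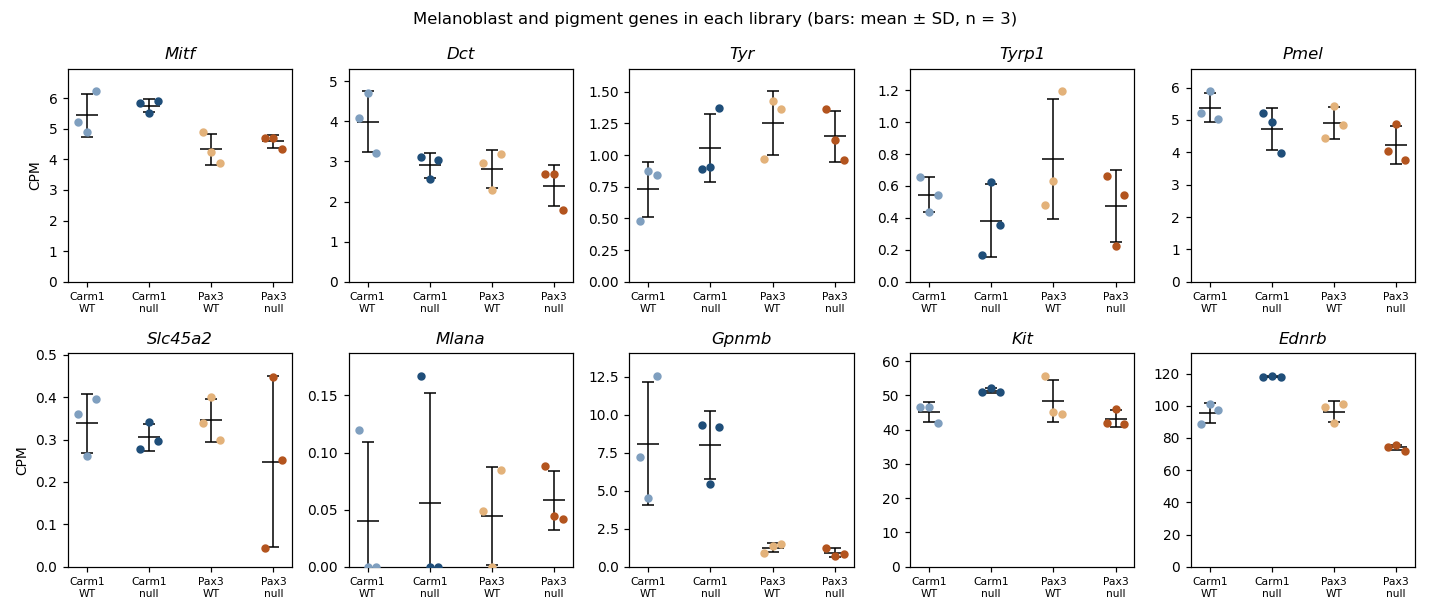
Level of each of the 10 genes in every library, in CPM from 0, with 1 panel per gene and 3 points per group; bars show the mean ± SD (n = 3). In Ednrb the Carm1 null points (117.9 to 118.3) lie above and the Pax3 null points (72.2 to 75.6) below every wild-type point (88.6 to 100.9).

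Ednrb, the endothelin receptor gene (chromosome 14, 103814625 to 103844402, minus strand, GRCm38), showed the clearest separation. In Pax3 null embryos it stood at 74.5, 75.6 and 72.2 CPM, and in wild type at 99.2, 89.0 and 100.9 CPM. In Carm1 null embryos it stood at 117.9, 118.3 and 117.9 CPM, and in wild type at 88.6, 100.8 and 97.5 CPM. The groups did not overlap in either line. Ednrb was 1.30-fold lower in Pax3 null embryos (log2 fold change -0.37 ± 0.059 SE, adjusted P = 3.5e-05, edgeR) and 1.23-fold higher in Carm1 null embryos (log2 fold change 0.30 ± 0.049 SE, adjusted P = 4.5e-05, edgeR). The Carm1 effect exceeded the Pax3 effect by 0.69 ± 0.077 on the log2 scale (adjusted P = 1.5e-07, edgeR). The wild-type embryos of the lines lay close together for this gene, with a log2 difference of 0.0073 and a 95% interval of -0.10 to 0.12. Each library held 1479 or more Ednrb counts, so that counting error was at most 2.6% of the value.

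Kit, the receptor for KIT ligand (chromosome 5, 75574916 to 75656722, plus strand), moved less. It stood at 50.9, 52.1 and 50.9 CPM in Carm1 null embryos and at 46.7, 46.8 and 41.8 CPM in wild type. The 2 groups did not overlap, and Kit was 1.14-fold higher in the null embryos (log2 fold change 0.19 ± 0.059 SE, adjusted P = 0.031, edgeR). This call was lost with DESeq2 (adjusted P = 0.092), in 1 edgeR fit of all 12 libraries (0.096), and in edgeR without any 1 of the 3 null libraries (0.079, 0.12 and 0.082) or without wild-type replicate 3 (0.15). It was also lost in edgeR with a term that marks libraries holding Y-linked counts (0.16). In this line the term marks only wild-type replicate 3, so that fit and the one without this library are not separate checks. In Pax3 null embryos Kit stood at 41.9, 46.1 and 41.7 CPM, beside 55.6, 45.1 and 44.5 CPM in wild type. These groups overlapped, and the log2 fold change of -0.16 (95% interval -0.32 to 0.0098) did not pass the threshold (adjusted P = 0.16, edgeR). It did so in edgeR with the Y-linked term (log2 fold change -0.22, adjusted P = 0.026), whereas it was -0.046 (adjusted P = 0.72) without wild-type replicate 1 and -0.041 (adjusted P = 0.77) with length and GC offsets. The difference between the 2 effects was 0.35 ± 0.10 on the log2 scale (adjusted P = 0.012, edgeR). It was 0.24 (adjusted P = 0.061, edgeR) without Pax3 wild-type replicate 1, the library with the highest Kit level of the 12.

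**Figure D3:**
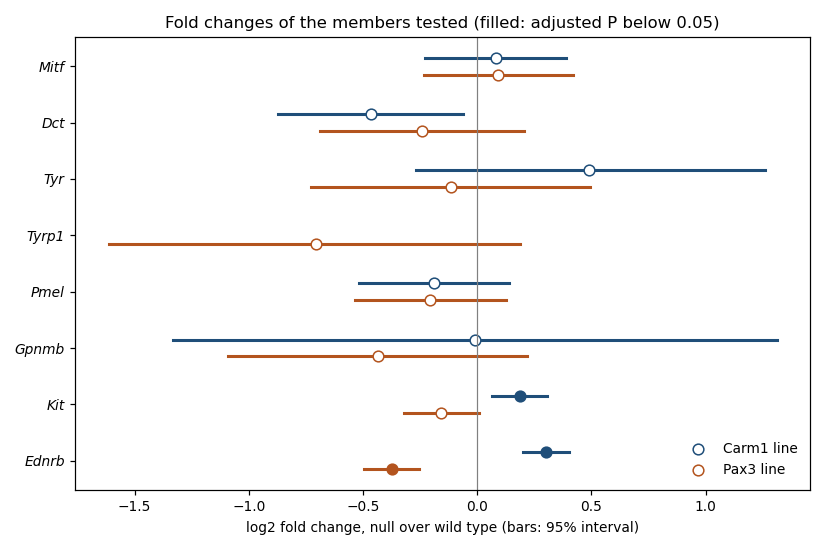
Log2 fold change of null over wild-type embryos for each gene tested, with its 95% interval (blue, Carm1 line; orange, Pax3 line), where filled points mark an adjusted P below 0.05. Only Ednrb in both lines and Kit in the Carm1 line are filled, and the intervals of Tyr, Tyrp1 and Gpnmb are the widest.

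Mitf, the regulator of the pigment genes (chromosome 6, 97807052 to 98021349, plus strand), stood between 4.35 and 4.71 CPM in Pax3 null embryos and between 3.87 and 4.89 CPM in wild type. In Carm1 null embryos it stood between 5.50 and 5.89 CPM, inside the wild-type range of 4.88 to 6.22 CPM. The log2 fold change was 0.093 (95% interval -0.23 to 0.42, adjusted P = 0.72, edgeR) in the Pax3 line and 0.080 (-0.23 to 0.39, adjusted P = 0.79) in the Carm1 line. The lower bounds correspond to 85.2% and 85.3% of the wild-type level.

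Dct, which encodes dopachrome tautomerase and is widely used as an early melanoblast marker (chromosome 14, 118012790 to 118052244, minus strand), had 40 to 108 counts per library. In Carm1 null embryos it stood at 3.11, 2.55 and 3.03 CPM, all below the wild-type values of 4.07, 4.71 and 3.21 CPM. The log2 fold change was -0.47 (95% interval -0.87 to -0.061, unadjusted P = 0.026), but it did not pass the threshold over all genes (adjusted P = 0.12, edgeR). In Pax3 null embryos it stood at 2.69, 2.69 and 1.80 CPM and in wild type at 2.95, 2.29 and 3.19 CPM. These groups overlapped, with a log2 fold change of -0.24 (95% interval -0.69 to 0.20, adjusted P = 0.45, edgeR). A fall to 62.0% of wild type thus remained within the interval in the Pax3 line, and one to 54.6% in the Carm1 line. The difference between the 2 effects was not detectable at this depth (-0.21, 95% interval -0.81 to 0.38, adjusted P = 0.67, edgeR).

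Among the Carm1 libraries 4 of the 7 members tested had groups that did not overlap, with Dct lower and Tyr, Kit and Ednrb higher in the null embryos. Of all genes tested there, 15.7% lay wholly below and 14.2% wholly above wild type. Of the 8 members tested in the Pax3 line, Ednrb was the only one whose groups did not overlap, where 20% of all genes tested lay wholly below and 19.9% wholly above.

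Tyr encodes tyrosinase, the rate-limiting enzyme of melanin synthesis (chromosome 7, 87424771 to 87493512, minus strand). It had 16, 16 and 23 counts in Carm1 null libraries and 8, 20 and 17 in wild type, or 0.889, 0.908 and 1.37 CPM against 0.479, 0.871 and 0.839 CPM. The null values all lay above the wild-type ones, 2 of them by little, and the log2 fold change of 0.49 had a 95% interval of -0.27 to 1.26 (adjusted P = 0.44, edgeR). Tyr and Dct thus stood on opposite sides of wild type in this line. There were 0.286, 0.356 and 0.451 Tyr counts per Dct count in the null libraries and 0.118, 0.185 and 0.262 in wild type, which is a description with no test. That these ratios do not overlap follows from the positions of the 2 genes and adds nothing to them. Neither gene passed the threshold in this line. Tyr stood, in the Pax3 line, between 0.962 and 1.36 CPM in null embryos and between 0.967 and 1.43 CPM in wild type (log2 fold change -0.12, 95% interval -0.73 to 0.49, adjusted P = 0.82, edgeR).

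Tyrp1, the gene for the tyrosinase-related protein that acts late in the synthesis of black pigment (chromosome 4, 80834123 to 80851719, plus strand), was counted 15, 5 and 13 times in Pax3 null libraries and 10, 11 and 28 times in wild type. The groups overlapped, and the log2 fold change of -0.71 had a 95% interval of -1.61 to 0.19 (adjusted P = 0.25, edgeR). It was -0.19 without wild-type replicate 3, the library with 28 counts (adjusted P = 0.83, edgeR) and -0.38 without null replicate 2, and it lay further below 0 than -0.71 without any 1 of the other 4 libraries. It had, in the Carm1 line, 3, 11 and 6 counts in null and 11, 10 and 11 in wild-type libraries, which was below the filter. Counting error alone was 18.9% to 57.7% of a Tyrp1 value.

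Pmel encodes the protein that forms the fibrils of the melanosome (chromosome 10, 128704195 to 128720238, plus strand). It stood between 3.77 and 4.88 CPM in Pax3 null embryos, against 4.45 to 5.43 CPM in wild type, and between 3.99 and 5.23 CPM in Carm1 null embryos, against 5.03 to 5.88 CPM. The groups overlapped in both lines. The log2 fold change was -0.20 (95% interval -0.53 to 0.13, adjusted P = 0.38, edgeR) in the Pax3 line and -0.19 (-0.52 to 0.14, adjusted P = 0.49) in the Carm1 line. Exons of Pmel overlap those of Cdk2 by 34 bases and of Dgka by 105 bases on the opposite strand, 1.5% and 4.6% of its exon length, and whether the counting used strand is not given in the sources used here.

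Slc45a2, which encodes a melanosome transporter (chromosome 15, 11000721 to 11029233, plus strand), and Mlana, which encodes a small melanosome membrane protein (chromosome 19, 29697824 to 29708634, plus strand), were below the filter on low counts in both lines. Slc45a2 had 1 to 10 counts per library, with 1, 10 and 6 in Pax3 null libraries and 7 in each wild-type library of that line. Mlana had 0 to 3 counts, and the 5 libraries with a count of 0 allow up to 0.131 to 0.178 CPM (3 counts per library, for counting error only). Without the filter, the log2 fold changes of Slc45a2 were -0.44 in the Pax3 line and -0.13 in the Carm1 line (adjusted P = 0.69 and 0.94, edgeR), and those of Mlana 0.25 and 0.66 (0.93 and 0.85).

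Summed over Dct, Tyr, Tyrp1, Pmel, Slc45a2 and Mlana, these members stood at 7.36 to 9.40 CPM in Pax3 null embryos and at 9.24 to 10.98 CPM in wild type. They stood, in the Carm1 line, at 9.04 to 9.84 CPM in null and at 10.02 to 12.15 CPM in wild-type embryos. The summed ranges overlapped in the Pax3 line and did not overlap in the Carm1 line, for these genes only. Gpnmb, also a gene of melanosomes, was left out of the sum. In the Carm1 line it stood at 5.45 to 9.34 CPM in null and 4.53 to 12.5 CPM in wild-type embryos. With Gpnmb included the summed ranges of that line would overlap. No share over all genes stands beside a sum. Most of each sum came from Pmel and Dct, so it follows those genes.

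Gpnmb, a glycoprotein gene of melanosomes and of macrophage lysosomes (chromosome 6, 49036546 to 49070929, plus strand), varied widely among the libraries of the Carm1 line. It stood at 9.34, 5.45 and 9.22 CPM in Carm1 null embryos and at 7.25, 4.53 and 12.5 CPM in wild type. The groups overlapped fully, and the log2 fold change of -0.011 had a 95% interval of -1.33 to 1.31 (adjusted P = 0.99, edgeR). It was 0.47 without wild-type replicate 3, the highest of these libraries. Gpnmb stood, in the Pax3 line, at 1.23, 0.716 and 0.837 CPM in null and at 0.919, 1.37 and 1.49 CPM in wild-type embryos (log2 fold change -0.43, 95% interval -1.09 to 0.22, adjusted P = 0.34, edgeR).

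Between the wild-type embryos of the lines 2 of the 8 members tested differed, Gpnmb and Dct, where 43.7% of all genes tested did (23.1% lower and 20.6% higher in the Pax3 line). Gpnmb was 6.38-fold lower in Pax3 wild-type than in Carm1 wild-type embryos (log2 difference -2.67, 95% interval -3.70 to -1.65, adjusted P = 0.0011, edgeR), with no overlap between the 6 libraries of one line and the 6 of the other. Macrophage genes lay lower in the same libraries. The 15 genes of that list summed to 97.7 to 112 CPM in the Pax3 line and to 157 to 180 CPM in the Carm1 line, and of its 14 tested genes 9 were lower in Pax3 wild-type embryos and none was higher. The part of these cells in the Gpnmb difference was not tested. Dct was 1.42-fold lower in Pax3 wild-type embryos (log2 difference -0.50, adjusted P = 0.040, edgeR), but not called with DESeq2 (adjusted P = 0.091), with the Y-linked term (0.13), or in edgeR without Carm1 wild-type replicate 1 (0.080) or 2 (0.22), or Pax3 wild-type replicate 1 (0.058) or 2 (0.15). Tyr lay the other way, 1.67-fold higher in Pax3 wild-type embryos (95% interval 1.04 to 2.70), and did not pass the threshold (adjusted P = 0.076, edgeR).

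Genes that act upstream of Mitf were examined next. Of 15 regulators of the crest and melanoblast, 13 were tested in each line. Of these, 6 fell in the Pax3 line, where 10.5% of all genes tested did, and the median log2 fold change of the 13 was -0.20. Both the count and the median include Pax3, the targeted gene of that line, which is no separate result. Sox10, the crest transcription factor that activates Mitf, was 1.85-fold lower in Pax3 null embryos (log2 fold change -0.89 ± 0.093 SE, adjusted P = 7.8e-08, edgeR). Erbb3, a neuregulin receptor gene of crest derivatives, fell by 0.59 on the log2 scale, and Zeb2, a crest transcription factor gene, was 1.42-fold lower (log2 fold change -0.51). The others that fell were Tfap2a, Tfap2b and Pax3 itself. For the Carm1 line the median was 0.037. Pax3 rose 1.30-fold (20.7, 22.7 and 24.5 CPM in wild type, 30.8, 29.7 and 27.7 CPM in null embryos, adjusted P = 0.0010, edgeR), while Tfap2b was 1.15-fold lower. The melanocortin receptor gene Mc1r and the transcription factor gene Irf4, which act later in pigment cells, were below the filter in both lines.

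A list of ligands and secreted factors that act on melanoblasts also held the receptor genes Met and Ednra. Of its 12 genes 11 were in the tables and all 11 were tested. In the Pax3 line 1 of the 11 rose and 1 fell, beside 14% and 10.5% of all genes tested. Pomc, the precursor gene of the melanocortins, rose 2.10-fold from a low level, and Met, the receptor for hepatocyte growth factor, was 1.43-fold lower. In the Carm1 line 1 of the 11 rose and none fell, beside 5.49% and 7.83% of all genes tested. This was Adamts20, a secreted protease gene needed by melanoblasts, which rose 1.17-fold (adjusted P = 0.044, edgeR), although its groups overlapped. Kitl and Edn3, the ligand genes for the receptors that Kit and Ednrb encode, are named outside the rule and after their values were seen. Neither passed the threshold in either line. For Kitl the log2 fold change was -0.15 in both lines (adjusted P = 0.22 in the Pax3 line and 0.12 in the Carm1 line, edgeR), and for Edn3 it was -0.096 and 0.15 (0.45 and 0.24).

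The 35 genes of melanosome assembly and pigment transport are used by lysosomes of most cells as well. Of 34 tested in the Pax3 line 6 rose and 7 fell, with a median log2 fold change of -0.12, beside 14% and 10.5% of all genes. The largest changes were rises of Hps6, Bloc1s1 and Bloc1s4, subunits of the complexes that build lysosome-related organelles (1.54-, 1.45- and 1.35-fold), and of Cd63, a tetraspanin of late endosomes (1.36-fold). The 7 that fell, each by less, were Ap3b1, Ap3m1, Atp7a, Mgrn1, Myo5a, Syt4 and Vps33a. Every gene that rose had a shorter longest coding transcript than every gene that fell. These calls were not followed under length and GC offsets, with which the calls over all genes in this line went from 3851 to 2473. Of 33 tested in the Carm1 line 2 rose and 2 fell, with a median of 0.032, which is close to the 5.49% and 7.83% of all genes that did. Rab32, a small GTPase of melanosome traffic, rose 1.26-fold and Atp7a, the copper transporter that supplies tyrosinase, 1.13-fold, while Syt4, a synaptotagmin gene, was 1.39-fold lower and Hps4 1.16-fold lower.

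Other cells that use the same genes were followed by their own lists. Of 14 genes of Schwann cell precursors and glia, 7 fell and 1 rose in the Pax3 line, and of 8 enteric crest genes 5 fell and 1 rose, where 10.5% of all genes tested fell and 14% rose. Cdh19, a cadherin of crest glia, was 2.22-fold lower and Tlx2, an enteric neuron homeobox gene, 2.80-fold lower, and Sox10 is in both lists. The summed glial list stood at 342 to 355 CPM in Pax3 null and at 402 to 418 CPM in wild-type embryos, and the enteric list at 265 to 275 and 294 to 318 CPM. Much of the glial difference lay in Itga4 (80.7 CPM in wild type, 46.4 CPM in null embryos), whereas Fabp7, the most abundant of that list, rose (125 and 144 CPM). Much of the enteric difference lay in Elavl4 (114 and 91.8 CPM) and Sox10 (28.7 and 15.4 CPM), whereas Hand2 rose (40.7 and 53.2 CPM). The sums follow these genes more than the rest of their lists. The summed levels moved with Ednrb in that line, and the part of these cells in its fall was not tested. Only Fabp7, a fatty acid binding protein of radial glia and glia, changed among the glial genes in the Carm1 line (1.29-fold higher), and no enteric gene did in edgeR (1 of 8 at an unadjusted P below 0.05).

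Genes of mast cells moved with Kit in the Carm1 line, where 5.49% of all genes tested rose and 7.83% fell. Of 12 listed genes 7 were tested and 4 rose: Cma1 (8.30-fold) and Cpa3 (3.62-fold), both mast cell proteases, Ms4a2, a subunit of the IgE receptor, and Gata2. Cma1 (2 to 9 counts in wild-type and 45 to 51 in null libraries) and Ms4a2 (2 to 5 and 10 to 18) passed the filter through the null group. The 4 of 7 therefore cannot be read against the share over all genes. Cpa3 stood at 9.59 ± 0.170 CPM in Carm1 null embryos and at 2.62 ± 0.724 CPM in wild type (SD, n = 3). The list summed to 68.1 to 71.9 CPM in null and to 49.2 to 52.2 CPM in wild-type embryos, of which Gata2 and Slc18a2, both also used by other cells, gave the most. Fcer1a and Mrgprb1 were at 0 counts in all 12 libraries. Of 13 hematopoietic progenitor genes 7 fell and 2 rose, led by falls of Gfi1b (1.67-fold lower) and Gata1 (1.54-fold lower), and of 7 germ cell genes 1 rose (Tfap2c, 1.30-fold), a count too small to read against the share over all genes. In the Pax3 line, where 14% of all genes tested rose and 10.5% fell, 1 of 5 mast cell genes rose, Gata2, and of 13 progenitor genes 2 rose and 2 fell. Of 8 germ cell genes there, Nanos3 rose. The part of these cells in the Kit values was not tested.

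**Figure D4:**
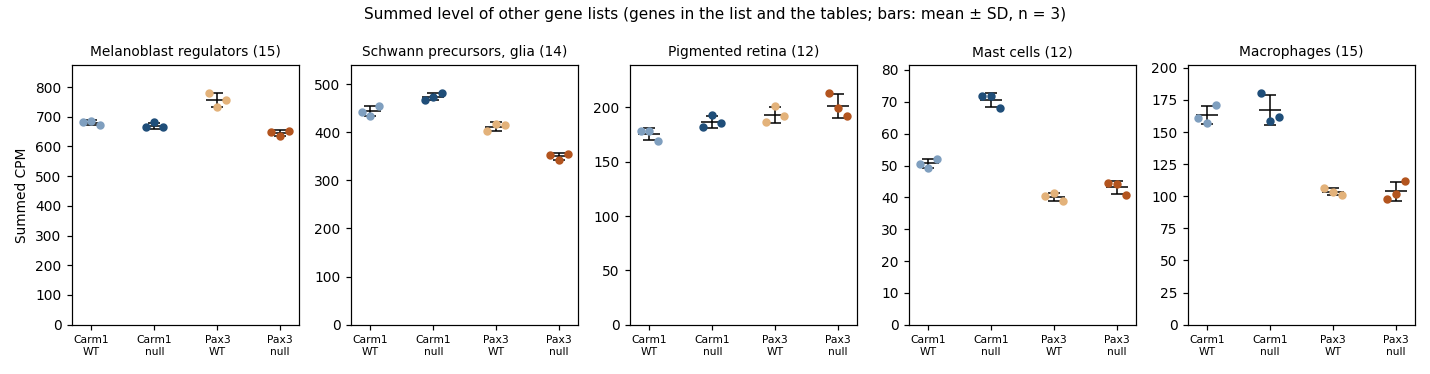
Summed level of 5 other gene lists in every library, in CPM from 0; points are libraries and bars the mean ± SD (n = 3). The glial list and the melanoblast regulators are lower in Pax3 null embryos, the mast cell list is higher in Carm1 null embryos, and the macrophage list is higher in the Carm1 line as a whole.

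The retinal pigment epithelium makes Dct, Tyr, Tyrp1 and Pmel at this stage too. Of 12 listed genes none changed in the Pax3 line in edgeR (0 of 10 tested, 1 at an unadjusted P below 0.05), where 14% of all genes tested rose and 10.5% fell. In the Carm1 line 3 of 9 rose. These were Otx1 and Otx2, homeobox genes of the pigmented retina and the forebrain (1.22- and 1.21-fold), and Stra6, a retinol transporter gene (1.17-fold), beside 5.49% of all genes tested in that line. Rdh5 and Rlbp1, retinoid genes of the pigment epithelium, lay the other way there and did not pass the threshold. Rdh5 stood at 2.20 ± 0.648 CPM in the Carm1 null group and 3.36 ± 0.229 CPM in wild type (SD, n = 3 each; log2 fold change -0.61, adjusted P = 0.073, edgeR), and Rlbp1 at 2.97 ± 0.503 and 3.82 ± 0.491 CPM (log2 fold change -0.36, adjusted P = 0.26, edgeR). Both are named after their values were seen. The list summed to 192 to 213 CPM in Pax3 null embryos and 187 to 201 CPM in wild type, and to 182 to 193 CPM in Carm1 null embryos and 169 to 179 CPM in wild type. Lhx2, Stra6 and Rdh10, which other tissues also use, gave most of these sums. Rpe65, the defining enzyme of mature pigment epithelium, had at most 1 count in any library. Of the genes of optic cup and neural retina 0 of 9 tested changed in the Pax3 line in edgeR (2 at an unadjusted P below 0.05), and in the Carm1 line Pax6 rose 1.25-fold and Sfrp2 was 1.30-fold lower. Macrophage genes were called in both directions within each line. In the Pax3 line 1 of 14 was higher and 1 lower, beside 14% and 10.5% of all genes tested. Within the Carm1 line 1 of 14 was higher and 2 lower, beside 5.49% and 7.83%. The falls there were led by Marco, a scavenger receptor (7.73-fold lower). Marco had 55 to 72 counts in wild-type and 6 to 9 in null libraries, so it passed the filter through the wild-type group. How much of the Dct, Tyr or Pmel signal came from the eye was not tested.

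The 5 genes most like Dct were ranked by the Pearson correlation of log2 CPM over the 12 libraries, centred on the mean of each line, among 14484 genes. They were Coro6 (r = 0.91), Tbxas1 (0.91), Car12 (0.90), Taf9b (0.88) and Pcdhb11 (0.87). Among the members Pmel stood nearest to Dct (r = 0.51), with 0.61 within the Carm1 line and 0.40 within the Pax3 line. For the receptors the values within the lines had opposite signs, with -0.71 in the Carm1 line and 0.65 in the Pax3 line for Ednrb (0.0085 over both) and -0.45 and 0.48 for Kit (0.052 over both). For Mitf they were -0.70 and 0.016 (-0.36 over both), and for Gpnmb -0.36 and 0.32 (-0.089 over both). Centring on the line leaves the difference between null and wild-type embryos in these values. The signs for Ednrb and Kit are therefore no separate result from the fold changes above. These values describe 12 libraries that share depth and composition within a line, and at 40 to 108 Dct counts a library the counting error of Dct was 9.62% to 15.8%.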

How the data were processed

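The authors isolated RNA from whole homogenized embryos, selected polyadenylated RNA, sequenced paired reads of 150 bases and aligned them to mm10 (STAR). Exonic reads were then tallied per gene (featureCounts). What was deposited are raw counts, neither normalized nor pooled. Tool versions, the annotation and the strand setting are not given in the sources used here. Groups and replicate numbers come from the sample titles.

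Tests were run within each line in edgeR 4.0.16 under R 4.3.3, using TMM factors, filterByExpr, robust quasi-likelihood fits and Benjamini-Hochberg adjustment over all genes tested. The difference between the lines and that between their wild-type embryos were contrasts in 1 fit of 12 libraries. Intervals are 95% and use the moderated degrees of freedom. Lengths and positions come from GENCODE M21 on GRCm38, the build mm10. That annotation matched 23055 of the 23420 symbols (98.4%). Promoter windows come from RefSeq.

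Alternatives were DESeq2 (version 1.42.0), RLE factors, no filter on low counts, at least 10 counts in every library, 1 fit of 12 libraries, the replicate number as a block, a term for libraries with at least 100 counts on 4 Y-linked genes, splines for length and GC content with 5 degrees of freedom, and each library left out in turn. The tests were first checked on simulated data. Named genes are the 10 members, the 2 targeted genes, up to 4 changed genes per list and line with the largest fold change and a mean of at least 1 CPM, and the 5 genes most like Dct. Smaller changes are named where they complete a count. A result for 1 of the listed regulators is not reported here. The members and lists were chosen with earlier results of these data known.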

Additional observations from a re-analysis of the deposited data

Results flagged for a closer look

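The effect of the null allele on Ednrb differed between the lines, by 0.69 on the log2 scale (Carm1 effect minus Pax3 effect, 95% interval 0.53 to 0.84, adjusted P = 1.5e-07, edgeR). It was higher than every wild-type library of its line in 3 of 3 Carm1 null embryos and lower in 3 of 3 Pax3 null embryos. Kit differed in the same direction, by 0.35 (95% interval 0.15 to 0.56, adjusted P = 0.012, edgeR), with 3 of 3 Carm1 null embryos above and the Pax3 groups overlapping.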

How the results depend on the processing

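The 3 Ednrb calls and the Gpnmb difference between the wild-type groups held under every alternative run, with Ednrb at 0.25 to 0.34 in the Carm1 line, -0.42 to -0.25 in the Pax3 line and 0.56 to 0.74 for the difference. Members called in the Pax3 line numbered 2 with the Y-linked term (1 otherwise). In the Carm1 line 1 member was called in place of 2 with DESeq2, in 1 fit of 12 libraries and with the Y-linked term, and 1 to 2 with a library left out. For the difference 1 to 2 were called with a library left out. Between wild-type groups 1 was called with DESeq2, 3 with length and GC offsets, and 1 to 3 with a library left out. Directions turned for values near 0 or of low counts: Tyr in the Pax3 line (0.16 with length and GC offsets), Gpnmb in the Carm1 line (0.023 with the replicate block, 0.47 with the Y-linked term, -0.32 to 0.47 with a library left out), the difference for Mitf (0.0023 with DESeq2, 0.0017 with RLE factors, 0.00077 with the replicate block, -0.10 to 0.11 with a library left out), for Pmel (-0.054 to 0.14) and Tyrp1 (-0.32 to 0.60) with a library left out, and between wild-type groups Ednrb (-0.0049 at 10 counts, -0.086 with length and GC offsets, -0.041 to 0.061 with a library left out) and Kit (-0.0040 with length and GC offsets, -0.014 to 0.16 with a library left out). The cause was not tested. Over all genes, 3851 calls in the Pax3 line became 2473 with length and GC offsets, 4596 in 1 fit of 12 libraries and 2454 to 4103 with a library left out, and 2106 in the Carm1 line became 2930 with length and GC offsets and 1224 to 2290 with a library left out. The replicate block changed no call among the members, with 1, 2, 2 and 2 called in the Pax3 line, the Carm1 line, the difference and the wild-type groups. Deviations of same-numbered null and wild-type libraries from their group means correlated at -0.06 to 0.162. The labels name no pairs, and these values cannot exclude that same-numbered libraries share a litter or batch. Depth limits Tyr, Tyrp1, Slc45a2 and Mlana most. The term for Y-linked counts marks 4 libraries, 1 of them in the Carm1 line. That library is wild-type replicate 3, and the null libraries of that line held 2, 5 and 4 Y-linked counts. Within the Carm1 line the fit with the term is thus close to the fit without that library and no separate check.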
